A study of Homo sapiens with 12 samples.

Results

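The genes described here are 37 genes of protein folding and quality control in the endoplasmic reticulum (ER), the compartment where secreted and membrane proteins are made. They were taken by symbol from a list whose rule uses no measured value, although the list was drawn up with earlier results of these data known, and all 37 were present among the 56634 rows of the count table. Of these, 36 passed the filter on low counts that left 13084 genes for testing. The exception was DERL3, a derlin of the degradation machinery, which held 6 counts over the 12 libraries. RNA came from HCT116, an established line of human colorectal carcinoma cells, in 4 groups of 3 biological replicates. Vehicle alone (0.1% DMSO) was present throughout the 3 hours in the control group. In the Senexin B group, cells were exposed for 3 hours to 1 µM of Senexin B, an inhibitor of the Mediator kinases CDK8 and CDK19. The TNF group had 1 hour of 0.1% DMSO before 2 hours of the cytokine TNF-alpha at 10 ng/mL. In the group given TNF plus Senexin B, 1 µM of the inhibitor came first for 1 hour and TNF at 10 ng/mL followed for 2 hours. The title of the series names the question, which is what Mediator kinase inhibition does to transcription in these cells with or without TNF.

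Proteins enter the ER through the SEC61 channel and are folded there by Hsp70 and Hsp90 chaperones, by the lectin chaperones calnexin and calreticulin, and by disulfide isomerases. Proteins that fail to fold are returned to the cytosol and destroyed, a route called ER-associated degradation. When misfolded protein builds up, the sensors IRE1 (gene ERN1), PERK (gene EIF2AK3) and ATF6 start the unfolded protein response: IRE1 splices XBP1 mRNA into the form that encodes an active transcription factor, ATF6 is cut into an active factor, and PERK slows translation and favours synthesis of ATF4. Gene counts add up the spliced and unspliced forms of XBP1 mRNA, so splicing was not analysed here.

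Library totals ran from 5835226 to 9281176 counts, and levels are given as CPM, a library's counts scaled to a common TMM-adjusted library size. The reference genes moved with the labels: EGR1 fell by 1.45 on the log2 scale with Senexin B, and NFKBIA rose by 3.54 with TNF. Control replicate 1 and TNF replicate 1 stood apart from the other libraries of their groups, with a chi-square per degree of freedom of 2.45 to 2.76 against them and 1.21 to 1.71 for all other pairs within a group. In the control group 8 of 10 epithelial markers held counts, with LGALS4 and VIL1 at 0. Summed epithelial markers were 4409 to 4746 CPM in control, 4833 to 4926 in Senexin B, 4174 to 4645 in TNF and 4840 to 4895 in TNF plus Senexin B. The 6 fibroblast markers summed to 7.46 to 11.2 CPM over the 12 libraries, mostly COL1A1, and the 6 blood cell markers to at most 0.539. The higher epithelial sum in the Senexin B groups moved with the inhibitor; its part in the results below was not tested.

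In unstimulated cells the most abundant ER chaperones stood far above the 3 sensors, but not all chaperones did. Per kilobase of merged exons, the calreticulin gene CALR stood highest in control at 372 ± 8.29 CPM per kb (SD, n = 3). HSP90B1, the ER Hsp90, followed at 322 ± 2.61, and HSPA5, the ER Hsp70 also called BiP, at 313 ± 4.61 CPM per kb. The disulfide isomerase gene P4HB was at 225 ± 7.38 and the calnexin gene CANX at 214 ± 6.77 CPM per kb, and the libraries of this pair overlapped. XBP1 was 14th in the order at 22.3 ± 1.03 CPM per kb. ATF6 stood at 9.66 ± 0.388, EIF2AK3 at 3.06 ± 0.0796 and ERN1 at 2.57 ± 0.215 CPM per kb. The co-chaperone gene DNAJB9 at 5.12 ± 0.423 and CRELD2 at 7.49 ± 0.513 CPM per kb lay below ATF6. EDEM1, a lectin that passes misfolded glycoproteins to degradation, was lowest of the tested genes at 2.56 ± 0.192 CPM per kb and overlapped ERN1. DERL3 came last at 0.0104 CPM per kb, and 77% of its exon bases are shared with SMARCB1 on the opposite strand. The disulfide isomerase gene TXNDC5 was at 3.19 ± 0.248 CPM per kb. Its place is uncertain, since 60.6% of its exon bases are shared with the readthrough gene BLOC1S5-TXNDC5. Of the 36 neighbouring pairs in this order, 15 had overlapping control libraries. The 37 genes together took 0.969% ± 0.0124 of all counts in control, 0.973% ± 0.00228 in Senexin B, 0.966% ± 0.00316 in TNF and 0.958% ± 0.00959 in TNF plus Senexin B (SD, n = 3 each).

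**Figure D1:**
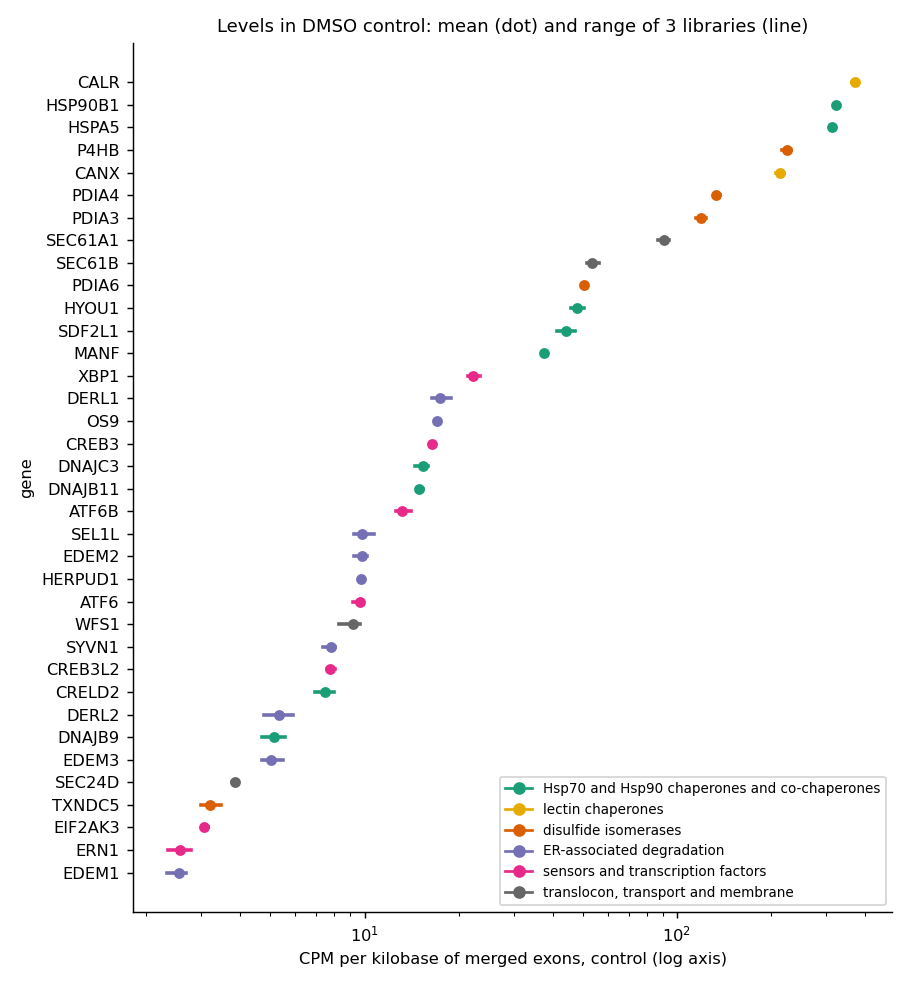
Control levels of the 36 tested genes in CPM per kilobase of merged exons (log axis), ordered from highest to lowest. Dots are means of 3 libraries, bars run from the lowest to the highest library, and colours give the role, with CALR at 372 at the top and EDEM1 at 2.56 at the bottom.

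Several of these promoters carry short elements known from the unfolded protein response. The genes were not chosen by promoter letters, but they were listed as genes of ER folding and of that response. The shares below therefore describe the list and are no independent test. RefSeq promoter windows on GRCh38.p14, from 250 bases before to 50 bases after a start, were matched for 33 genes (42 windows). DERL1, DERL3, PDIA3 and SEC24D had none. The ER stress response element (ERSE), which is CCAAT, then 9 bases of any kind, then CCACG, was found on either strand in 9 of the 42 windows (21.4%), against 27 of all 35116 windows (0.0769%). It lay at 7 genes: CALR, CANX, CRELD2, HSP90B1, HSPA5, PDIA6 and XBP1. The 3 matching CANX windows overlap and hold the same match. ERSE-II, which is ATTGG, 1 base of any kind and CCACG, lay at HERPUD1, HYOU1 and SDF2L1 (7.14% of windows, against 0.0541% of all windows). Both elements contain CCACG, which by itself was in 69.0% of the 42 windows and 38.1% of all windows, and CCAAT was in 76.2% and 34.6%. The UPRE, TGACGTGG, lay at HYOU1 and TXNDC5 (4.76% against 0.729%), the cyclic AMP element, TGACGTCA, at CREB3L2 (2.38% against 1.85%), and a C/EBP-ATF element, TGATGCAA, at HERPUD1 (2.38% against 0.866%). A match describes letters and is not evidence of a bound factor.

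These 6 promoters are shown as examples of the 10 genes with an ERSE or ERSE-II, with XBP1 first since it was called in all 4 comparisons of groups. The other XBP1 window, at another start, held neither element. Each run is the 150 bases before the start, 5′ to 3′ on the strand of the gene, with the ERSE or ERSE-II in capitals (GRCh38.p14, from RefSeq). XBP1 (chr22:28800570-28800719, minus strand) has its ERSE from 52 to 34 bases before the start, and HSPA5 (chr9:125241344-125241493, minus strand) from 66 to 48. In HSP90B1 (chr12:103930260-103930409, plus strand) and CRELD2 (chr22:49918484-49918633, plus strand) the printed element reads on the opposite strand, so CCACG appears as CGTGG. HERPUD1 (chr16:56931992-56932141, plus strand) and HYOU1 (chr11:119057206-119057355, minus strand) hold the ERSE-II, in HYOU1 on the opposite strand. Beyond the printed bases, HSP90B1 has another ERSE on its own strand, from 194 to 176 bases before the start. HYOU1 has another ERSE-II on the opposite strand, from 185 to 175.
XBP1: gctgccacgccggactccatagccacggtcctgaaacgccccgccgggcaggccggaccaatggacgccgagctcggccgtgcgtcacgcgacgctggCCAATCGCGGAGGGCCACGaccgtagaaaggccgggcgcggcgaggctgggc
HSPA5: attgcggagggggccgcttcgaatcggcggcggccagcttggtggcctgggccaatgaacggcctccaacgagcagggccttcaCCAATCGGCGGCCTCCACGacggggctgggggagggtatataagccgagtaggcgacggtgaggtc
HSP90B1: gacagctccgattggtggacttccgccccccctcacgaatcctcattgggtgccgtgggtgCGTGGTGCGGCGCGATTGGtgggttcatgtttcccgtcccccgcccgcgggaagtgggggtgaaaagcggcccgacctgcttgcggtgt
CRELD2: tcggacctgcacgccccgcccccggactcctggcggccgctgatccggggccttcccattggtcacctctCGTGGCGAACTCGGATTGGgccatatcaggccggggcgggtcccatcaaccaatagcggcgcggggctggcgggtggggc
HERPUD1: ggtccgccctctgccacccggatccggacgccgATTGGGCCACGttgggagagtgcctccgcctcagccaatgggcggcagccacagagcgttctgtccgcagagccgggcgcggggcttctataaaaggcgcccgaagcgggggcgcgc
HYOU1: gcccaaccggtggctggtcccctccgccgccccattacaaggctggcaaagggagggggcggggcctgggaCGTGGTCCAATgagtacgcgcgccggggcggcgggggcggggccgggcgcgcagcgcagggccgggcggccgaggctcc

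With Senexin B alone XBP1 rose, and no other of the 36 tested genes was called. HSPA5 and the rest of the chaperone and degradation machinery did not pass the test. In edgeR's quasi-likelihood F-test a gene was called at a p under 0.05 after Benjamini-Hochberg adjustment over all 13084 genes, and 1 of 36 was higher and 0 were lower. At an unadjusted p under 0.05 the counts were 3 higher and 2 lower, and DESeq2 also called 0 lower. Among all tested genes 3.04% were called (1.53% higher, 1.51% lower), so 1 of 36 is near the background. The median log2 fold change of the 36 was 0.00095, beside -0.00036 for all tested genes. In this whole-culture RNA, fewer cells of a type and less RNA per cell cannot be told apart.

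XBP1, whose product drives chaperone and degradation genes, lies at chr22:28794555-28800597 (GENCODE 29, minus strand). Its level was 64.7, 70.8 and 66.8 CPM in the control libraries and 88.9, 86.4 and 87.8 CPM in the Senexin B libraries. Every Senexin B library stood above every control library. The edgeR log2 fold change was 0.38 ± 0.06 (SE), a 1.30-fold rise with a 95% interval of 1.1965 to 1.41 and an adjusted p of 1.03e-05.

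The sensors did not pass the test. ERN1, the gene of IRE1, was at 30.2, 25.5 and 28.0 CPM in control and 26.4, 24.3 and 27.9 CPM with Senexin B. EIF2AK3, the gene of PERK, was at 17.1, 16.4 and 16.4 CPM in control and 14.5, 16.9 and 17.3 CPM with the inhibitor. ATF6 was at 78.2, 77.8 and 72.7 CPM in control and 71.7, 70.9 and 75.5 CPM with it. For all 3 sensors the libraries of the groups overlapped. Their 95% intervals on the fold were 0.834 to 1.07 for ERN1, 0.846 to 1.14 for EIF2AK3 and 0.881 to 1.04 for ATF6. The remaining transcription factors ATF6B, CREB3 and CREB3L2 had log2 fold changes from -0.05 to 0.06.

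Among the 9 Hsp70 and Hsp90 chaperones and co-chaperones none passed. Log2 fold changes were above 0 for 7 of the 9, beside 6527 of all 13084 tested genes. With both agents against TNF they were above 0 for 6 of the 9 chaperones and co-chaperones. HSPA5, the most general of them, was at 1204, 1239 and 1230.3 CPM in control and 1264, 1242 and 1259.7 CPM with Senexin B. Its Senexin B libraries all lay above its control libraries, but the fold was 1.03 with a 95% interval of 0.982 to 1.07 and an edgeR adjusted p of 0.656. DNAJB9, an Hsp40 co-chaperone of HSPA5, had the largest value of the group, with 15.8, 14.5 and 13.4 CPM in control and 18.7, 18.6 and 17.8 CPM with Senexin B. The groups did not overlap, and the log2 fold change of 0.34 ± 0.11 missed the threshold at an edgeR adjusted p of 0.0797. It passed in 4 of 14 alternatives, among them without control replicate 1 and TNF replicate 1 together (adjusted p = 0.0359). The lectin chaperones CALR and CANX were at log2 fold changes of -0.04 and 0.00134, and of the disulfide isomerases only TXNDC5 was past 0.06 in size, at -0.21 ± 0.12.

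Of the 9 tested genes of ER-associated degradation none passed the test. Below 0 lay 7 of the 9, beside 6557 of all 13084 tested genes. With both agents against TNF 5 of the 9 lay below 0. EDEM3, a mannosidase that marks glycoproteins for degradation, was at 39.2 ± 3.09 CPM in control and 33.1 ± 1.83 with Senexin B (SD, n = 3). Its log2 fold change of -0.24 ± 0.08 had an edgeR adjusted p of 0.0899. EDEM1 was at -0.24 ± 0.11 and EDEM2 at 0.21 ± 0.10. SYVN1, the ubiquitin ligase also called HRD1, was at 0.10 ± 0.07, and its partner SEL1L at -0.07 ± 0.06. HERPUD1, which is carried with SYVN1 in the ligase complex, was at -0.09 ± 0.07. The translocon genes SEC61A1 and SEC61B, the coat gene SEC24D and WFS1, the gene of the ER membrane protein wolframin, ran from -0.16 to 0.04.

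For 27 of the 36 genes the single-gene 95% interval of the Senexin B effect lay within 1.2-fold in either direction, and for all 36 within 1.5-fold. Over all tested genes, of which many are less abundant, these counts were 6063 and 10544 of 13084. Libraries separated completely in 7 genes upward and 4 downward, beside 9.96% and 10.0% of all tested genes.

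**Figure D2:**
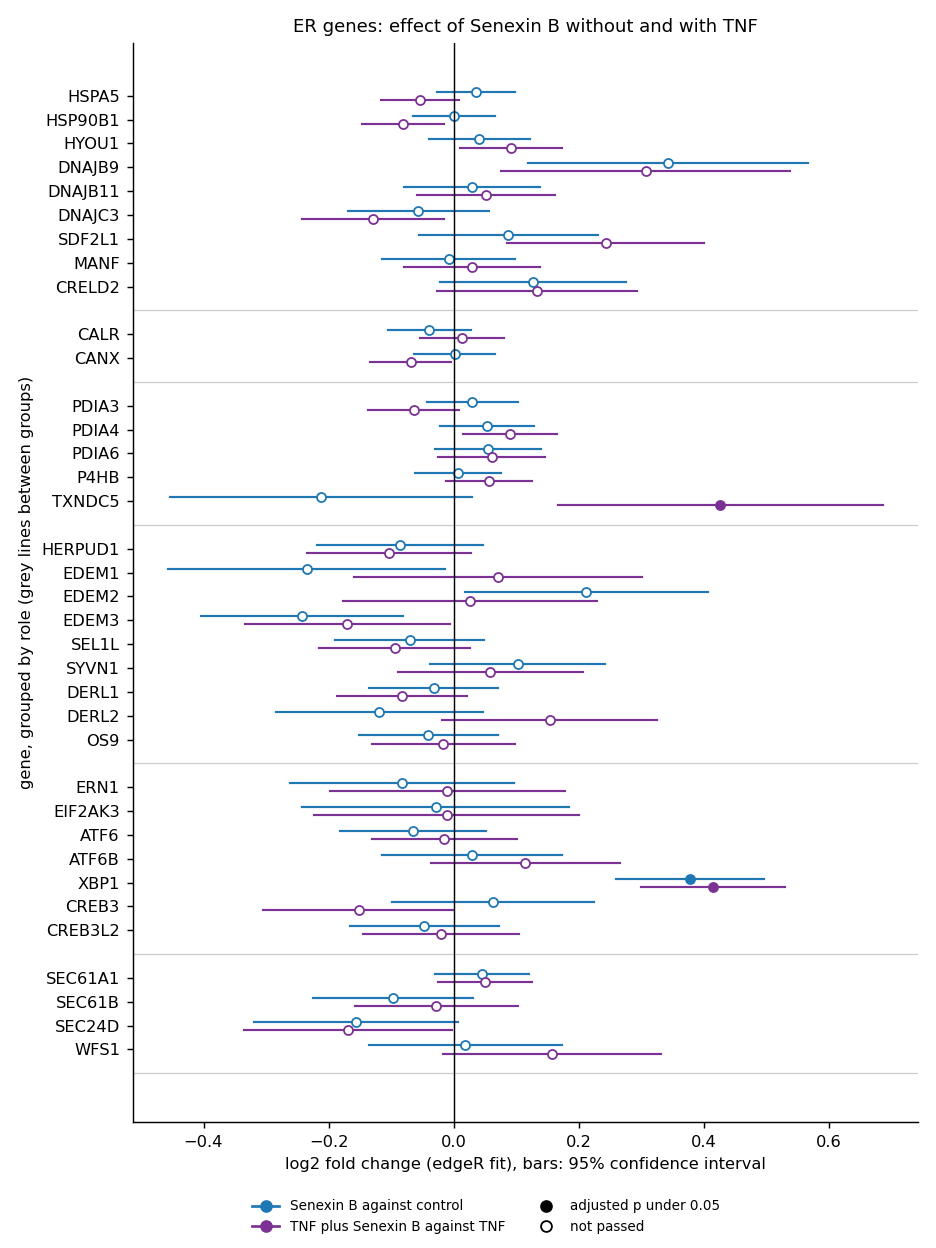
Log2 fold changes of the 36 tested genes for Senexin B against control (blue) and TNF plus Senexin B against TNF (purple), grouped by role, with 95% confidence intervals as bars and filled dots at adjusted p under 0.05. XBP1 is filled in both comparisons, at 0.38 and 0.41, and TXNDC5 in the second.

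In cells that also received TNF, the inhibitor again raised XBP1, and here TXNDC5 rose too. This comparison shares no library with the one above. By edgeR, 2 of 36 genes were higher and 0 lower, with 6 higher and 5 lower at an unadjusted p under 0.05 and 0 lower by DESeq2. Of all tested genes 5.45% were called (2.90% higher, 2.55% lower). Libraries separated completely in 7 genes upward and 5 downward, beside 11.3% of all tested genes in each direction. The median log2 fold change was 0.0192, beside 0.00077 for all tested genes.

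XBP1 stood at 76.6, 84.4 and 77.2 CPM in the TNF libraries and at 97.0, 110.05 and 111.0 CPM in those given TNF plus Senexin B. Again the groups did not overlap. The edgeR log2 fold change was 0.41 ± 0.06, a 1.33-fold rise (95% interval 1.23 to 1.44, adjusted p = 4.50e-07). TXNDC5, a disulfide isomerase of the thioredoxin family, was at 11.4, 9.93 and 9.77 CPM with TNF and 12.5, 15.2 and 13.7 CPM with both agents. All of the latter were higher, and the edgeR log2 fold change was 0.43 ± 0.13 (adjusted p = 0.0358). The TXNDC5 call held in 7 of 14 alternatives and was lost, among others, with DESeq2 (adjusted p = 0.150) and without any of 4 libraries: TNF replicates 2 (0.0956) and 3 (0.126), and TNF plus Senexin B replicates 2 (0.190) and 3 (0.0848). Its value is also uncertain because 60.6% of its exon bases are shared with the readthrough gene BLOC1S5-TXNDC5, whose own row held 0 counts.

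DNAJB9 was at 17.3, 13.5 and 13.7 CPM with TNF and 20.1, 18.1 and 16.0 CPM with both agents, and here the groups overlapped. Its log2 fold change was 0.31 ± 0.12 with an edgeR adjusted p of 0.108. Without TNF replicate 1 that adjusted p was 0.0414. SDF2L1, a cofactor of HSPA5, had a log2 fold change of 0.24 ± 0.08 (adjusted p = 0.0534). HSPA5 itself was at -0.05 ± 0.03, HSP90B1 at -0.08 ± 0.03, and the sensors ERN1, EIF2AK3 and ATF6 were all at -0.01. The sign of the Senexin B effect without and with TNF was the same for 26 of 36 genes (72.2%), beside 64.1% of all tested genes, and XBP1 was called in the same direction in both.

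Of the 7 genes with an ERSE in the promoter, XBP1 was the only one called in either Senexin B comparison. Of all tested genes 3.04% were called with Senexin B alone and 5.45% with TNF present, so counts in so few genes say little about the element. The other 6 had log2 fold changes from -0.04 (CALR) to 0.13 (CRELD2) with Senexin B alone. With TNF present they ran from -0.08 (HSP90B1) to 0.13 (CRELD2). The ERSE-II genes HERPUD1, HYOU1 and SDF2L1 were at -0.09, 0.04 and 0.09 with Senexin B alone and at -0.10, 0.09 and 0.24 with TNF present. None of these ERSE-II genes was called there, and SDF2L1 with TNF present (edgeR adjusted p = 0.0534) passed in 4 of 14 alternatives. For TNF against control, described below, XBP1 and HSPA5 were called higher and SDF2L1 lower, beside 10.0% of all tested genes.

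**Figure D3:**
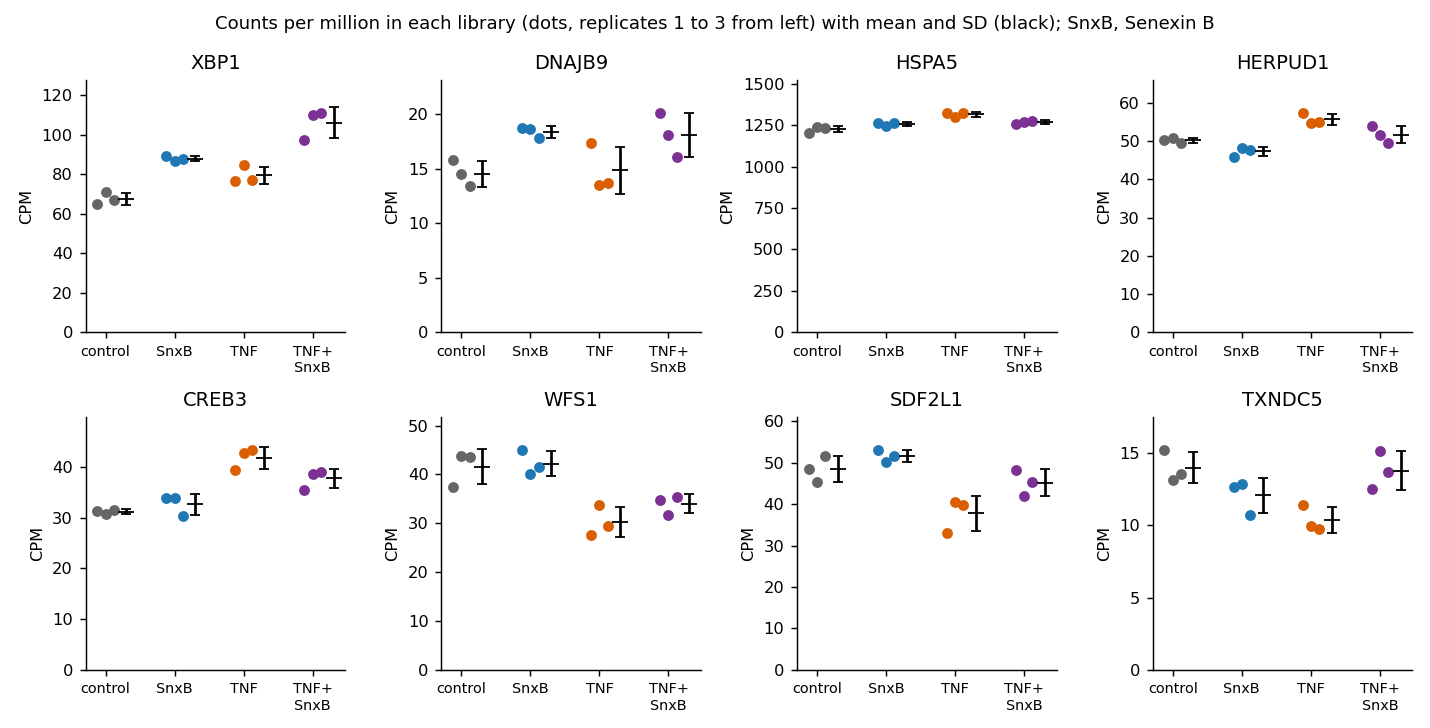
CPM in each of the 12 libraries for 8 genes (dots, replicates 1 to 3 from left in each group), with the mean and SD of each group in black and axes from 0. XBP1 rises in every treated group to 106.0 CPM with both agents, CREB3 is highest with TNF, and WFS1 is lower in both groups that received TNF.

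TNF by itself raised XBP1, CREB3 and HSPA5 and lowered WFS1, SDF2L1 and TXNDC5. These 3 higher and 3 lower genes of 36 stand beside 10.0% of all tested genes called by edgeR (5.81% higher, 4.20% lower). Libraries separated completely in 7 genes upward and 5 downward, beside 12.6% and 11.8% of all tested genes. The median log2 fold change was 0.0023 and that of all tested genes -0.0052. This comparison shares its control libraries with the first Senexin B comparison and its TNF libraries with the second.

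CREB3, an ER-anchored transcription factor related to ATF6, lies at chr9:35732335-35737004 (GENCODE 29, plus strand). It was at 31.3, 30.7 and 31.6 CPM in control and 39.4, 42.7 and 43.4 CPM with TNF. The groups did not overlap, and the edgeR log2 fold change was 0.43 ± 0.08, 1.35-fold with a 95% interval of 1.21 to 1.502 (adjusted p = 5.69e-05). GBA2 and TLN1 on the opposite strand share 10.5% of its exon bases, and a kit that does not mark strand cannot divide those reads. XBP1 rose from 67.5 ± 3.13 to 79.4 ± 4.32 CPM (SD, n = 3 each), a log2 fold change of 0.24 ± 0.06 (edgeR adjusted p = 0.00586). That call was lost without TNF replicate 2 (adjusted p = 0.0701).

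HSPA5 was at 1325, 1298 and 1323 CPM in the TNF libraries, above all 3 control libraries. The change was small, at 1.07-fold with a 95% interval of 1.03 to 1.12 (edgeR adjusted p = 0.0238). It was lost in 6 of 14 alternatives, among them without control replicate 1 (adjusted p = 0.0825), control replicate 3 (0.0523) or TNF replicate 3 (0.0739). Other abundant folding genes did not pass and went both ways. CANX was at 0.09 ± 0.03 (edgeR adjusted p = 0.0610), PDIA3 at 0.10 ± 0.04 (0.0729) and HSP90B1 at 0.08 ± 0.03 (0.106). Over 14 alternatives CANX ran from 0.03 to 0.11 and passed in 2. HSP90B1 ran from 0.02 to 0.11 and passed in 1. P4HB was at -0.07 ± 0.03 (0.224) and CALR at -0.05 ± 0.03 (0.422). Of the 36 genes, 18 lay above 0 and 18 below.

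WFS1 (chr4:6269849-6303265, GENCODE 29, plus strand) fell from 37.5, 43.7 and 43.5 CPM in control to 27.6, 33.7 and 29.4 CPM with TNF. No TNF library reached the lowest control library. The edgeR log2 fold change was -0.45 ± 0.08, 0.731-fold with a 95% interval of 0.650 to 0.822 (adjusted p = 6.54e-05), and the call held in 14 of 14 alternatives. SDF2L1 (chr22:21642261-21644298, GENCODE 29, plus strand) was at 48.5, 45.5 and 51.7 CPM in control and 32.9, 40.6 and 39.8 CPM with TNF, again without overlap. Its edgeR log2 fold change was -0.35 ± 0.08 (adjusted p = 0.00105). TXNDC5 was at 15.2, 13.2 and 13.6 CPM in control, above its 3 TNF libraries. Its log2 fold change was -0.44 ± 0.13 (edgeR adjusted p = 0.0183), and the call held in 9 of 14 alternatives, with losses, among others, under DESeq2 (0.107) and without control replicate 1, TNF replicate 2 or TNF replicate 3.

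GC content moved with the comparisons that involve TNF. Across 12443 genes, which are not independent replicates, the log2 fold change of TNF against control ranked against transcript GC with a Spearman rho of -0.41. Without control replicate 1 and TNF replicate 1, a fit with 12534 such genes, the rho was -0.28. For both agents against TNF the rho was 0.37 (0.18 without these libraries), for TNF under the inhibitor -0.18 in both fits, and for Senexin B alone 0.09 (0.04). Beyond the GC-corrected fits, the part of GC content in the results was not tested. SDF2L1 has the highest GC of the 36 genes (65.5%), WFS1 59.5%, and CREB3, which rose, 56.6%. Of the abundant folding genes named above for TNF, HSPA5 (46.0%), PDIA3 (43.8%), CANX (41.6%) and HSP90B1 (41.2%) lay above 0. P4HB (58.4%) and CALR (53.9%) lay below 0. With offsets corrected for GC, SDF2L1 was at -0.20 (adjusted p = 0.0751) and no longer called, while DERL2, a derlin that is not called without the correction, was at -0.25 (adjusted p = 0.0465). In the same fit WFS1 was at -0.37 (adjusted p = 0.000334) and CREB3 at 0.49 (3.15e-07), both still called. The TNF calls of HSPA5, XBP1 and TXNDC5 were also kept in the GC-corrected fit. In that fit both agents against TNF gave 0.46 for XBP1 (adjusted p = 4.80e-11) and 0.41 for TXNDC5 (0.0467), also still called.

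**Figure D4:**
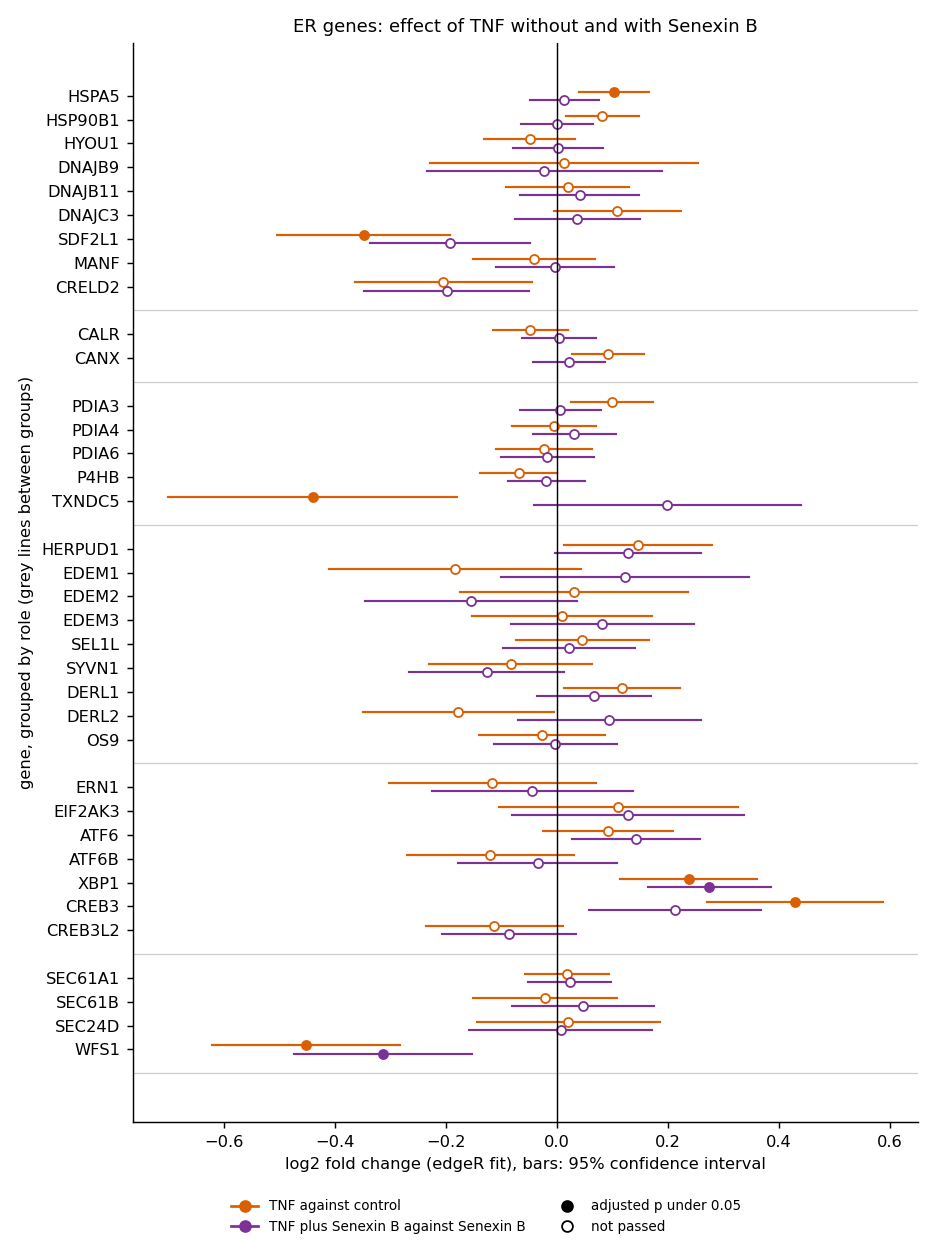
Log2 fold changes of the 36 tested genes for TNF against control (orange) and TNF plus Senexin B against Senexin B (purple), grouped by role, with 95% confidence intervals as bars and filled dots at adjusted p under 0.05. CREB3 (0.43) and WFS1 (-0.45) are the farthest from 0 in each direction without the inhibitor.

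With Senexin B present, TNF raised XBP1 and lowered WFS1. By edgeR 1 of 36 genes was higher and 1 lower, beside 5.95% of all tested genes (4.27% higher, 1.68% lower). Libraries separated completely in 5 genes upward and 4 downward, beside 11.5% and 10.4% of all tested genes. XBP1 had a log2 fold change of 0.27 ± 0.06 (1.21-fold, 95% interval 1.12 to 1.31, adjusted p = 0.000271), and all 3 libraries with both agents stood above the 3 with Senexin B. WFS1 was at 45.0, 40.2 and 41.5 CPM with Senexin B and 34.8, 31.7 and 35.4 CPM with both agents, without overlap. Its edgeR log2 fold change was -0.31 ± 0.08 (adjusted p = 0.00622), which was lost under DESeq2 (0.0630) and without Senexin B replicate 1 (0.0900) or TNF plus Senexin B replicate 2 (0.0841).

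CREB3 was at 33.9, 33.8 and 30.3 CPM with Senexin B and 35.6, 38.7 and 39.1 CPM with both agents. The groups did not overlap, but the log2 fold change of 0.21 ± 0.08 missed the threshold (edgeR adjusted p = 0.105). SDF2L1 was at 53.1, 50.1 and 51.7 CPM with Senexin B and 48.3, 41.9 and 45.4 CPM with both agents, with a log2 fold change of -0.19 ± 0.07 (adjusted p = 0.125). HSPA5 was at 1253.5, 1271 and 1276 CPM with both agents, overlapping its Senexin B libraries, at a log2 fold change of 0.01 ± 0.03. The sign of the TNF effect was the same without and with the inhibitor for 27 of 36 genes (75.0%), beside 64.95% of all tested genes, and XBP1 and WFS1 were called in both.

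The sensors stayed below the threshold here too. ERN1 was at 24.1, 27.6 and 24.9 CPM with TNF and 26.4, 23.0 and 27.0 CPM with both agents. EIF2AK3 was at 18.4, 16.6 and 18.9 CPM with TNF and 16.8, 17.9 and 18.7 CPM with both. ATF6 was at 86.2, 75.6 and 82.7 CPM with TNF and 82.8, 78.5 and 79.7 CPM with both. Against Senexin B alone all 3 ATF6 libraries with both agents were higher, at a log2 fold change of 0.14 ± 0.06 (edgeR adjusted p = 0.171).

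The difference between the Senexin B effect with and without TNF, tested as an interaction in edgeR, was called for 0 of the 36 genes, beside 0.0459% of all tested genes (0.0229% in each direction). At an unadjusted p under 0.05 there were 2 higher and 1 lower, and DESeq2 also called 0. For XBP1 the interaction was 0.04 ± 0.08 on the log2 scale (95% interval -0.13 to 0.20), so its 2 Senexin B effects differed by less than their error. TXNDC5 had the largest value at 0.64 ± 0.18 (adjusted p = 0.462), and CREB3 the lowest at -0.21 ± 0.11 (adjusted p = 0.805). Its levels with TNF, 41.8 ± 2.14 CPM alone and 37.8 ± 1.93 CPM with Senexin B (SD, n = 3), did not differ past the threshold (log2 fold change -0.15 ± 0.08, adjusted p = 0.266).

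In each of the other ER lists at most 2 genes were called in a comparison, apart from the PERK and ATF4 arm. These counts stand beside 3.04% of all tested genes called with Senexin B, 5.45% with both agents against TNF, 10.0% with TNF and 5.95% with TNF under the inhibitor, and most lie near or below those shares. Of 33 other ER folding genes, edgeR called 1 higher with Senexin B (SIL1, an exchange factor of HSPA5, 0.37 ± 0.11), 2 higher with TNF plus Senexin B against TNF (QSOX1 0.21 and PRKCSH 0.17), 1 higher with TNF (ERO1A, the oxidase that recharges disulfide isomerases, 0.20) and 0 for TNF under the inhibitor. Of 26 other degradation genes, FAM8A1 fell by 0.41 on the log2 scale with Senexin B, RHBDD1 rose by 0.27 with both agents against TNF, STUB1 fell by 0.30 with TNF, and 0 were called for TNF under the inhibitor. Of 29 other genes of the translocon, glycosylation and signal peptidase, 0 were called with Senexin B, SEC62 fell by 0.19 with both agents against TNF, SRP54 rose by 0.18 with TNF, and 0 were called for TNF under the inhibitor. Of 18 genes of COPII vesicles and ER exit, SAR1B fell by 0.28 with Senexin B, and with both agents against TNF SEC16A rose by 0.21 and SAR1A fell by 0.23. SEC24A, a cargo adaptor of that coat, rose by 0.36 with TNF and by 0.28 with TNF under the inhibitor, and TMED2 rose by 0.15 with TNF. Of 7 tested genes among other ATF6 and CREB3 factors and their proteases, NFYA fell by 0.19 with Senexin B and by 0.20 with both agents against TNF, and 0 were called for TNF. NFYA encodes a subunit of NF-Y, the factor known to bind the CCAAT of the ERSE.

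The PERK and ATF4 arm is the branch that the ER shares with amino acid and other stresses. Its counts and those of the heat shock genes stand beside the same shares of all tested genes, 3.04%, 5.45%, 10.0% and 5.95%. Of its 14 tested genes of 16, edgeR called 8 higher and 1 lower with Senexin B (list median 0.20), with TRIB3, a pseudokinase induced by ATF4, at 0.54 ± 0.06, STC2 at 0.43 ± 0.05, SESN2 at 0.55 ± 0.08 and ATF5 at -0.61 ± 0.08. With both agents against TNF the counts were 4 higher and 2 lower (median 0.01), with TRIB3 at 0.57 ± 0.06, ATF5 at -0.38 ± 0.08 and DDIT3, the gene of CHOP, at -0.56 ± 0.14, the last named after its value was seen. TNF raised 8 and lowered 0 (median 0.27), among them ATF3 at 1.46 ± 0.09, STC2 at 0.86 ± 0.05 and PPP1R15A, which reverses PERK's block of translation, at 0.66 ± 0.07. Under the inhibitor TNF raised 7 and lowered 0 (median 0.16). The interaction was called lower for STC2 (-0.42 ± 0.07) and ASNS (-0.32 ± 0.06), beside 0.0229% of all tested genes called lower. Over all tested genes that share is 3 genes, and it was 1 to 3 genes when each library was left out in turn. Of 19 cytosolic heat shock genes, the counterpart outside the ER, 0 rose and 7 fell with Senexin B (median -0.13), with HSPA1B at -0.87 ± 0.05, DNAJB1 at -0.63 ± 0.04 and HSPA8, the constitutive cytosolic Hsp70, at -0.37 ± 0.03. With both agents against TNF 1 rose and 9 fell (median -0.14), with TNF 2 rose and 4 fell, and under the inhibitor TNF raised 0 and lowered 1. HSPA5, the ER relative of HSPA8, was at 0.04 ± 0.03 with Senexin B.

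**Figure D5:**
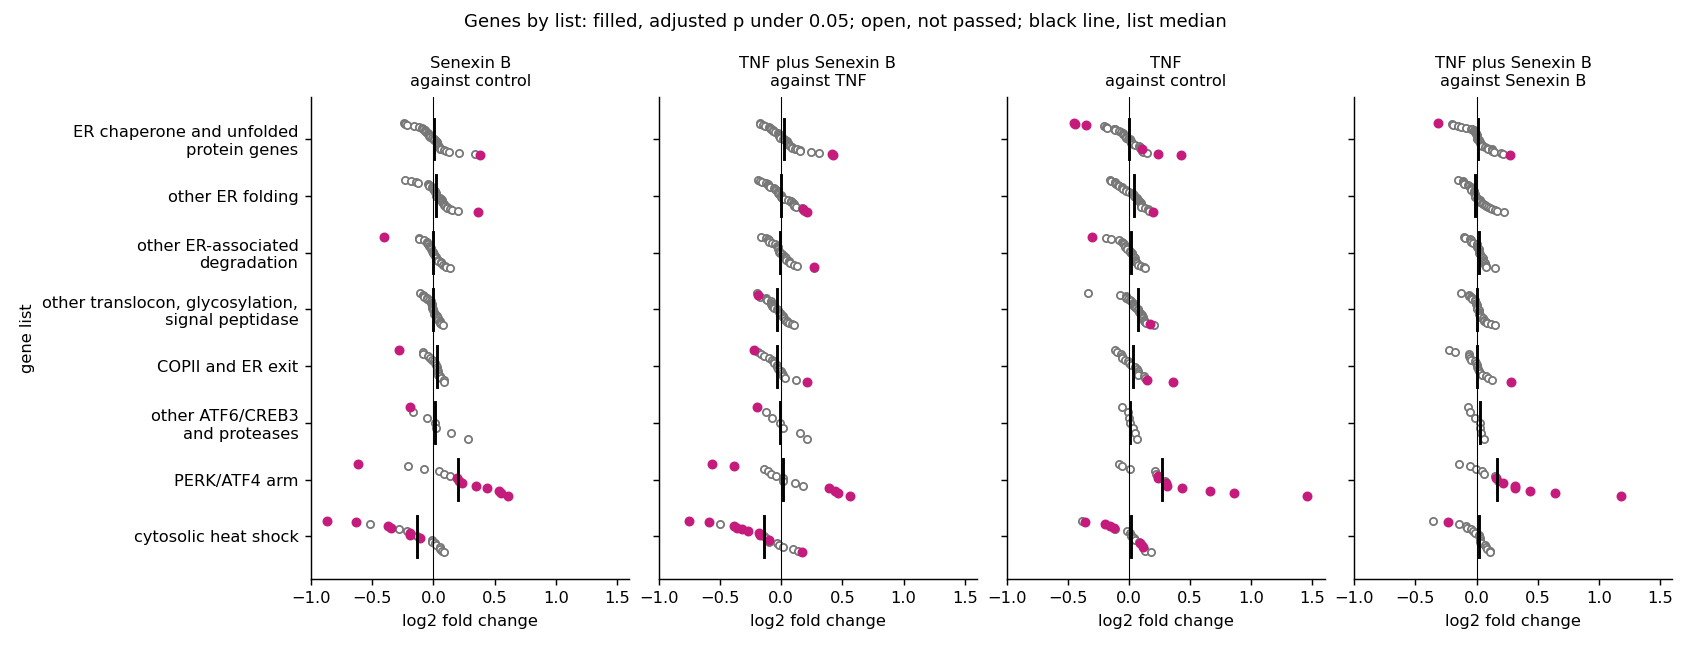
Log2 fold changes of single genes by list in 4 comparisons, with filled dots at adjusted p under 0.05, open dots for genes that did not pass and a black line at each list's median. The ER chaperone and unfolded protein genes lie around 0 with XBP1 among the filled dots of each panel, while the PERK and ATF4 arm has medians of 0.20, 0.01, 0.27 and 0.16.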

How the data were processed

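Per the labels' protocols, libraries of 12 cultures were made with a TruSeq RNA kit, in which strand is not marked. The authors deposited raw read counts per gene symbol, as whole numbers that had not been normalized. STAR 2.4, SAMtools 1.2, Subread 1.4.6 with its featureCounts program, and the GRCh38 (hg38) build are named in the submitters' processing notes. The annotation release, the strand setting and the handling of reads that map to several places are not given in the sources used here, so genes that overlap others are uncertain.

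Columns were matched to samples by the number in each sample description, and groups come from the labels, which call the samples biological triplicates. From the counts, CPM with TMM factors, the low-count filter filterByExpr and robust quasi-likelihood F-tests were computed in edgeR 4.0.16 (R 4.3.3), over all 12 libraries with 1 coefficient per group. P-values were adjusted by Benjamini-Hochberg over 13084 genes, and an adjusted p under 0.05 was called. Standard errors are Wald errors from the fit, and confidence intervals are for single genes. With totals of 5835226 to 9281176 counts, the common biological coefficient of variation was 3.62%, which sets the precision. Positions and merged exon lengths came from GENCODE 29, where all 37 genes and 36749 of the 56634 symbols were found. GC content was known for 95.1% of tested genes.

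The 37 genes and the other lists (other ER folding, other degradation, translocon, COPII, other ATF6 and CREB3 factors, PERK and ATF4 arm, cytosolic heat shock, reference genes and 3 marker lists) were chosen with earlier results of these data known. Library values are printed for genes called in any comparison and for HSPA5, XBP1, ERN1, ATF6 and EIF2AK3. DNAJB9 is printed outside that rule, after its values were seen. Of other lists, up to 4 called genes per comparison with the smallest adjusted p are named. The fit was also run on counts simulated from its own fitted spread. Those counts held no GC trend and no replicate effect, so they cannot show how the fit handles these. Alternatives were RLE factors, DESeq2 1.42.0, no filter, only the groups compared, each library left out, 2 libraries left out together, GC-corrected offsets, a replicate block, and a shorter promoter window.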

Additional observations from a re-analysis of the deposited data

How the results depend on the processing

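No called gene changed direction under any alternative, but medians of the 36 genes close to 0 changed sign in several, of which some are given here. With Senexin B alone, the number of genes called higher among the 36 was 2, with DNAJB9 added to XBP1, when the fit held only the groups compared, without control replicate 1 and TNF replicate 1 together, with GC-corrected offsets, and with a replicate block plus GC-corrected offsets. With both agents against TNF it was 1 under DESeq2 and with only the groups compared. It was 3, with DNAJB9 added, with GC-corrected offsets, with the block plus GC-corrected offsets, and without control replicate 1 and TNF replicate 1 together. For TNF under the inhibitor, the number lower was 0 under DESeq2 and 2 without control replicate 1 and TNF replicate 1 together, and the number higher was 2 with GC-corrected offsets, with and without the block. The median log2 fold change for both agents against TNF was -0.00176 with GC-corrected offsets and -0.00212 with the block added. For TNF it was -0.02694 without the 2 libraries that stood apart and -0.00772 with GC-corrected offsets. For Senexin B it was -0.00091 under DESeq2, -0.00072 with RLE factors and -0.00644 with GC-corrected offsets. The causes were not tested. Leaving out each library in turn gave 1 higher and 0 lower each time for Senexin B, 1 to 3 higher and 0 to 1 lower for both agents against TNF, 2 to 4 higher and 2 to 3 lower for TNF, and 1 higher and 0 to 1 lower for TNF under the inhibitor. The medians then ran from -0.00872 to 0.00868, 0.00470 to 0.03099, -0.02494 to 0.00326 and 0.01228 to 0.01946 in that order, and from 0.00455 to 0.03715 for the interaction.

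Same-numbered libraries correlated from -0.0123 to 0.1031 over 18 pairs (median 0.0174). Libraries of other numbers ran from -0.0754 to 0.0462 over 36 pairs (median -0.0099). Of 12 libraries, 11 correlated best with their own number, so a shared replicate effect is possible. The correlations were weak, and the main fit held no replicate term, with the block given as an alternative. The replicate block alone gave 3 higher and 0 lower for both agents against TNF (SDF2L1 added) and 4 higher and 3 lower for TNF (CANX added). Of all tested genes, that block called 449 higher and 422 lower for both agents against TNF, and 843 and 627 for TNF. Over all genes the counts moved by more than 1.5 times under DESeq2, where 124 fell with Senexin B, 243 rose and 194 fell with both agents against TNF, 284 fell with TNF and 84 fell with TNF under the inhibitor. They also moved with the block plus GC offsets for Senexin B (344 higher, 366 lower), and for genes lower with TNF in the fit of only its groups (348), with GC offsets (348) and without the 2 libraries that stood apart (335). Leaving out each library in turn gave 126 to 164 higher and 110 to 177 lower for Senexin B (200 and 198 with all libraries), 242 to 478 and 200 to 337 for both agents against TNF (380 and 333), 552 to 731 and 324 to 617 for TNF (760 and 549), 443 to 469 and 131 to 140 for TNF under the inhibitor (559 and 220), and 1 to 6 and 1 to 3 for the interaction (3 and 3), so the shares of all genes called move with them. The interaction gave 1 higher under DESeq2, 7 without a filter and 5 with the block plus GC offsets. In the 150 bases before the start the ERSE was in 5 of the 42 windows (11.9%), beside 18 of all 35116 windows. CALR and CANX no longer held it. The ERSE-II lay there at HERPUD1 and HYOU1 (4.76%, beside 16 of all windows), and the UPRE at TXNDC5 (2.38%, beside 145). The cyclic AMP and C/EBP-ATF elements were each in 0% of the 42 windows, beside 492 and 178 of all windows. CCACG was in 52.4%, beside 23.4% of all windows, and CCAAT in 64.3%, beside 23.5%. At this depth DERL3, with at most 1 count in a library, cannot be compared.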
